A study of Mus musculus with 6 samples.

Results

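Complex I of the respiratory chain was described through its nuclear genes in livers of mice lacking Klf15 in the liver and of control mice. The genes were all those in the deposited table whose symbol begins with Nduf, without symbols that carry -ps, and they were 49 of 48432 genes. They fell into 7 core subunits, 29 accessory subunits, 8 assembly factors, Ndufa4 with its relative Ndufa4l2, and 3 genes annotated as processed pseudogenes (Ndufs6b, Ndufa11b and Ndufb4c). Enough fragments for a test were present for 48 of them, and Ndufb4c, which had 0 fragments in all 6 libraries, was not tested. No gene named Ndufb1 was in the table, so that accessory subunit has no value here.

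Complex I oxidizes NADH in the mitochondrial matrix, passes the electrons along a chain of iron-sulfur clusters to ubiquinone, and couples this to the pumping of protons across the inner membrane. The core subunits carry out electron transfer and are shared with bacteria, the accessory subunits surround and stabilise the core, and the assembly factors help to build the complex but are not part of the finished enzyme. Further core subunits that form the proton channels are encoded by mitochondrial DNA. In the liver the complex reoxidizes the NADH made by fatty acid oxidation and the citric acid cycle.

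The control group (Ctl, 3 libraries) came from mice that carry Albumin-Cre, in which the albumin promoter drives Cre recombinase in hepatocytes, and the Li-KO group (3 libraries) came from mice with a liver-specific knockout of Klf15, a zinc finger transcription factor. All mice were 10 weeks old, whole liver was taken, and the libraries of each group were numbered 0, 1 and 2. The labels name no treatment, do not say which part of Klf15 was removed or whether each library is a separate mouse, and p-values therefore measure the spread between these libraries, which may be technical. The question was how the knockout liver differed from the control liver.

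Total fragment counts were 30132499 to 42782318 per library over the genes analysed. Levels are CPM, counts relative to the library total after TMM scaling between libraries. Klf15 measured 174 to 345 CPM in the Ctl libraries against 41.6 to 54.3 CPM in the Li-KO libraries, with no overlap (log2 fold change -2.28 ± 0.26 SE, adjusted p = 0.00275). Of 10 hepatocyte markers, 3 abundant ones (Alb among them) were skipped by the quantification program, and the 7 others summed to between 10815 and 17415 CPM in every library, with Asgr2 called higher and Tdo2 lower. Markers of Kupffer cells (10 genes, 330 to 524 CPM in sum), sinusoidal endothelium (8 genes), stellate cells (8 genes) and lymphocytes (6 tested genes) had 0 called members in either direction. Of 6 cholangiocyte markers Sox9 was called lower, while the 5 others were positive in value and not called (median log2 fold change of the list 0.79). In bulk liver, fewer cells of a type and less RNA per cell cannot be told apart.

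Of the 48 tested Nduf genes, 22 were higher in Li-KO liver and 0 were lower, where called means an adjusted p under 0.05 in the edgeR quasi-likelihood test with Benjamini-Hochberg adjustment over all 16533 tested genes. In the background of all tested genes, 6.11% were called higher and 5.90% lower. The 48 genes had a median log2 fold change (Li-KO minus Ctl) of 0.47, against -0.01 over all tested genes, and 43 of them had a positive value. Every Li-KO library was above every Ctl library for 36 of the 48 genes, an arrangement that 17.4% of all tested genes showed. Summed over the family, Ctl replicates 0, 1 and 2 held 3337, 2957 and 3410 CPM, and Li-KO replicates 0, 1 and 2 held 4353, 4558 and 4808 CPM. On average this was 3234 ± 243 and 4573 ± 228 CPM (SD, n = 3 each), and the sums of the groups did not overlap. How many genes were called changed with the libraries used: dropping Ctl replicate 1 gave 4, leaving out Ctl replicate 2 or Li-KO replicate 1 gave 5, and leaving out each of the other libraries gave 15 to 17. The median log2 fold change stayed between 0.42 and 0.52 in those 6 fits, and 198 to 1102 genes of the whole table were called higher in them.

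**Figure D1:**
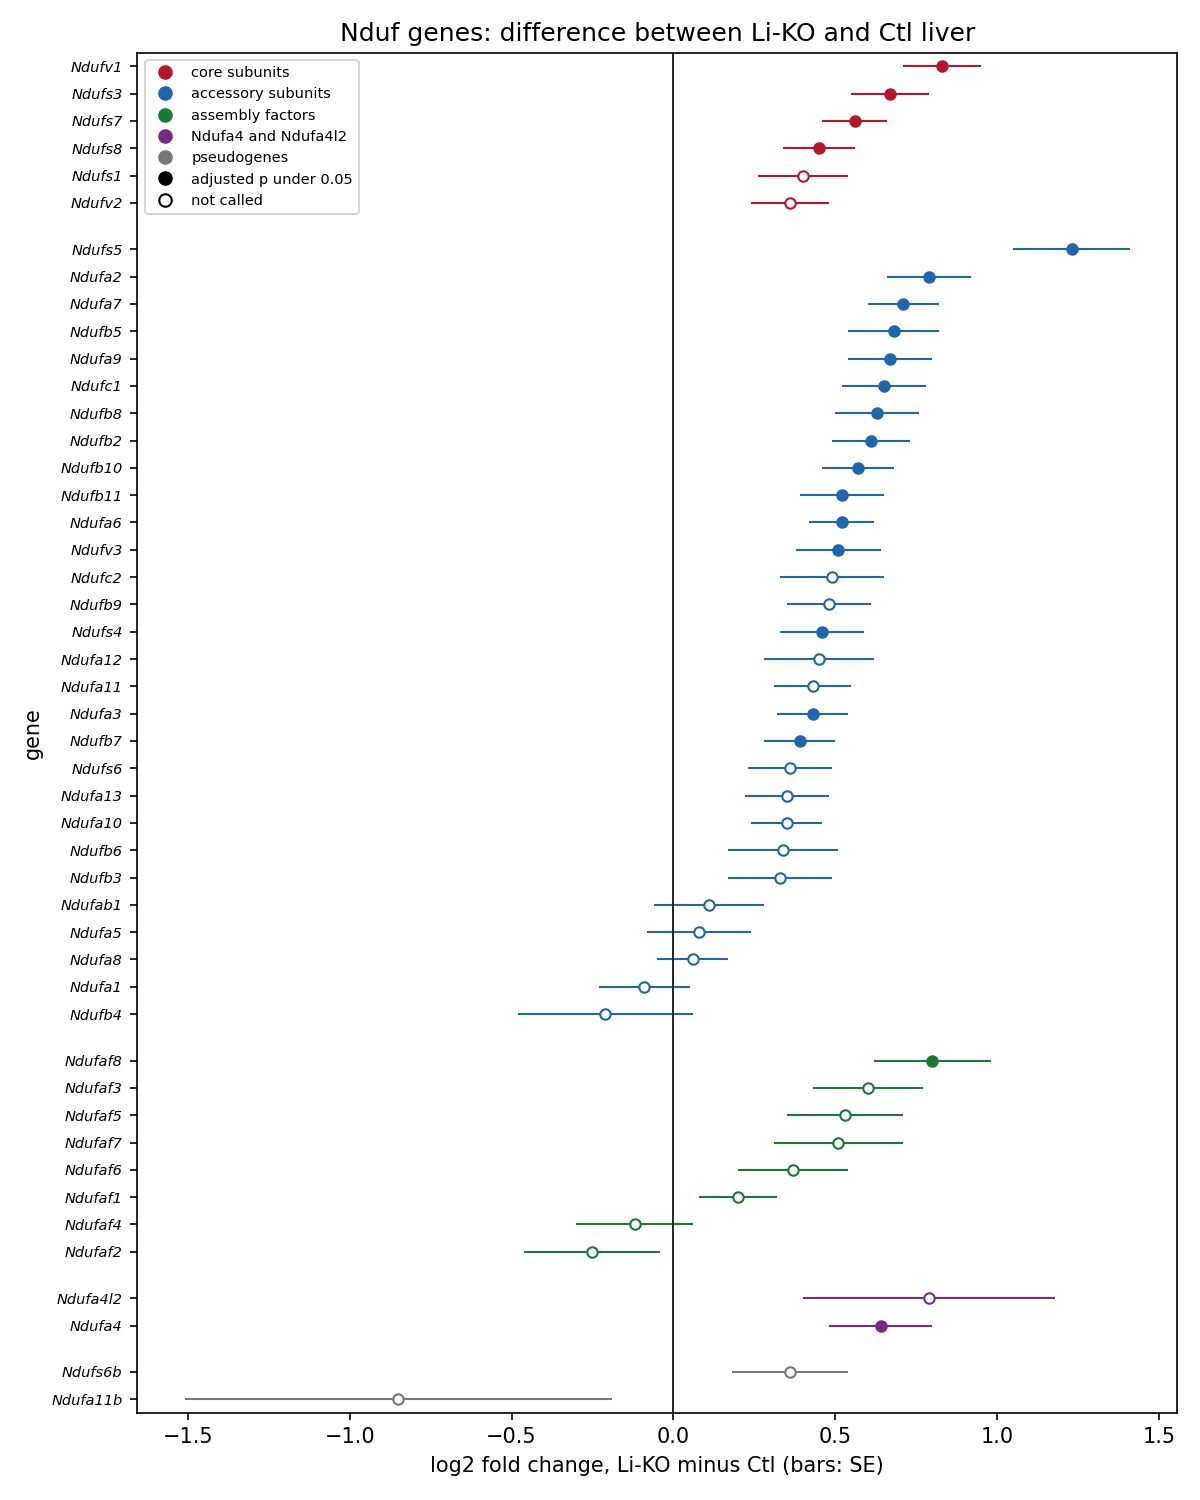
Log2 fold change (Li-KO minus Ctl, x axis) of the tested Nduf genes (y axis), grouped by role, with SE bars; filled points passed an adjusted p of 0.05 and open points did not. The core subunits shown all sit to the right of 0, while accessory subunits run from -0.21 to 1.23 and assembly factors from -0.25 to 0.80.

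The promoters of the family hold motifs of several factors known to act on nuclear genes of mitochondria, and 5 windows are shown as examples: those of the core and accessory genes with the largest fold changes (Ndufv1 and Ndufs5), 2 called genes with the same motif close to the start (Ndufs7 and Ndufa9), and the accessory gene with the lowest fold change (Ndufb4). Windows of 300 bases (250 before and 50 after the transcript start) came from RefSeq on GRCm38.p6, and 40 of the 49 genes had at least 1. The sequences run 5′ to 3′ on the gene's strand, with motif matches in capitals. They are Ndufv1 (chr19:4012706-4013005, minus strand), Ndufs7 (chr10:80249199-80249498, plus strand), Ndufa9 (chr6:126849095-126849394, minus strand), Ndufs5 (chr4:123718137-123718436, minus strand) and Ndufb4 (chr16:37654319-37654618, minus strand).
Ndufv1: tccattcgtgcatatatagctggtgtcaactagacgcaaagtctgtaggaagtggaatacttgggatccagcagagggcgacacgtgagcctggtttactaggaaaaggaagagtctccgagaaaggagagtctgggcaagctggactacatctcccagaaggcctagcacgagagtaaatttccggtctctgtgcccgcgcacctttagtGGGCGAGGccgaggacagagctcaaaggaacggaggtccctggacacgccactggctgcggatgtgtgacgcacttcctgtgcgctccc
Ndufs7: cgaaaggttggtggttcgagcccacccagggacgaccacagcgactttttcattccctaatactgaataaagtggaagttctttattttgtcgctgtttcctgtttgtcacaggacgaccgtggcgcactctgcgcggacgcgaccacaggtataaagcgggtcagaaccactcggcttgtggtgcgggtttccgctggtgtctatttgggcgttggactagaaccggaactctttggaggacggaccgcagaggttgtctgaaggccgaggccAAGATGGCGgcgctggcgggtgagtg
Ndufa9: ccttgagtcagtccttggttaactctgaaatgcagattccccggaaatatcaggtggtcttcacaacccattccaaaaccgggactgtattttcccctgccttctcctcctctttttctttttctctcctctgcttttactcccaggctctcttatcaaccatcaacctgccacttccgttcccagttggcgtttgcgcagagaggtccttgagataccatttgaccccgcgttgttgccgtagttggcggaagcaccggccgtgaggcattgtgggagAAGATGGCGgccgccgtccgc
Ndufs5: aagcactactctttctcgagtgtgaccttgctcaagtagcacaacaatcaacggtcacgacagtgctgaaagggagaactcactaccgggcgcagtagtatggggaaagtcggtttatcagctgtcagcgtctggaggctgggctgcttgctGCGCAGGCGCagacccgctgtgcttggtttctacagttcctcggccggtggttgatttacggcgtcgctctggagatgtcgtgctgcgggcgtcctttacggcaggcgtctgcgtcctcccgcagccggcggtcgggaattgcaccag
Ndufb4: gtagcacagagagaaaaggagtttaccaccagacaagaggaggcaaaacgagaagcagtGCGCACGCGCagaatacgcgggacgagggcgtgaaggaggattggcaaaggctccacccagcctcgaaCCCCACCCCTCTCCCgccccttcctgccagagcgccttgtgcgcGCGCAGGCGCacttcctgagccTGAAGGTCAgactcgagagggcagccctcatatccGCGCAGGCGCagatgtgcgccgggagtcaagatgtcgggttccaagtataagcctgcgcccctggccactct
The capitals mark a match to a Kruppel-like factor motif (CCNCNCCC) in Ndufv1, the YY1 motif (AAGATGGCG) in Ndufs7 and Ndufa9, and the NRF1 motif (GCGC, any base, TGCGC) in Ndufs5. In Ndufb4 they mark 3 NRF1 matches, 1 match to the motif of estrogen-related receptors (TNAAGGTCA) and overlapping matches of the Kruppel-like factor motif.

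Both strands of every window were searched. The YY1 motif was in 6 of the 42 windows of the family (14.3%) and in 1.4% of all 32851 promoter windows, and the NRF1 motif was in 10 of 42 (23.8%) and in 4.6% of all windows. The GABPA motif (CCGGAAG) was in 14.3% of the family's windows and 8.9% of all, the estrogen-related receptor motif in 2.4% and 1.3%, and the Kruppel-like factor motif in 50.0% and 49.5%. Among the genes called higher, 5 of 21 windows held the YY1 motif (Ndufa9, Ndufaf8, Ndufc1, Ndufs4 and Ndufs7), 2 of 21 the NRF1 motif, 4 the GABPA motif and 8 (38.1%) the Kruppel-like factor motif. Among the genes tested and not called, 1 of 21 windows held the YY1 motif, 8 of 21 the NRF1 motif, 2 the GABPA motif and 13 (61.9%) the Kruppel-like factor motif. These differences were not tested. A match shows only that the letters are there, and no binding was measured in these samples.

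Among the core subunits, 5 of 7 rose and 0 fell, with a median log2 fold change of 0.56 and values from 0.36 to 0.83. Ndufv1 (ENSMUSG00000037916.13, chromosome 19, 4007384 to 4012806, minus strand, mm10) holds the flavin that takes electrons from NADH, and its level was 184, 155 and 166 CPM in Ctl against 306, 304 and 290 CPM in Li-KO. The lowest Li-KO library was well above the highest Ctl library, and the means were 168 ± 14.8 and 300 ± 8.71 CPM, a log2 fold change of 0.83 ± 0.12 SE (adjusted p = 0.00624). Ndufs3, a matrix-side subunit next to the ubiquinone site, went from 39.0, 33.9 and 39.8 CPM to 61.4, 58.3 and 60.1 CPM. The groups did not overlap, and its log2 fold change was 0.67 ± 0.12 (adjusted p = 0.0118).

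Ndufs7, which carries the last iron-sulfur cluster before ubiquinone, measured 64.8, 59.4 and 59.9 CPM in Ctl against 88.7, 89.5 and 93.3 CPM in Li-KO. The Li-KO libraries were all above the Ctl libraries, with a change of 0.56 ± 0.10 (adjusted p = 0.0149). The promoter of Ndufs7, like that of Ndufa9, is shown above with a YY1 match close to the start. Ndufs8, another iron-sulfur subunit of the same arm, rose less, from 60.2 ± 3.59 to 82.3 ± 6.23 CPM (0.45 ± 0.11, adjusted p = 0.0374). Another pair of core subunits missed the threshold. Ndufs1, the largest iron-sulfur subunit, measured 198, 163 and 208 CPM in Ctl against 225, 245 and 282 CPM in Li-KO (0.40 ± 0.14, adjusted p = 0.104). Ndufv2, the partner of Ndufv1 at the NADH end, measured 113, 99.2 and 118 CPM in Ctl against 130, 143 and 151 CPM in Li-KO (0.36 ± 0.12, adjusted p = 0.0861). In both genes the groups did not overlap, and the fold changes were the smallest of the core subunits. Of these calls, that of Ndufv1 held in each of the 6 fits without a library, while Ndufs3 missed the threshold without Ctl replicate 1 (adjusted p = 0.0577). Ndufs7 and Ndufs8 lost the call in 3 and 5 of these 6 fits.

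**Figure D2:**
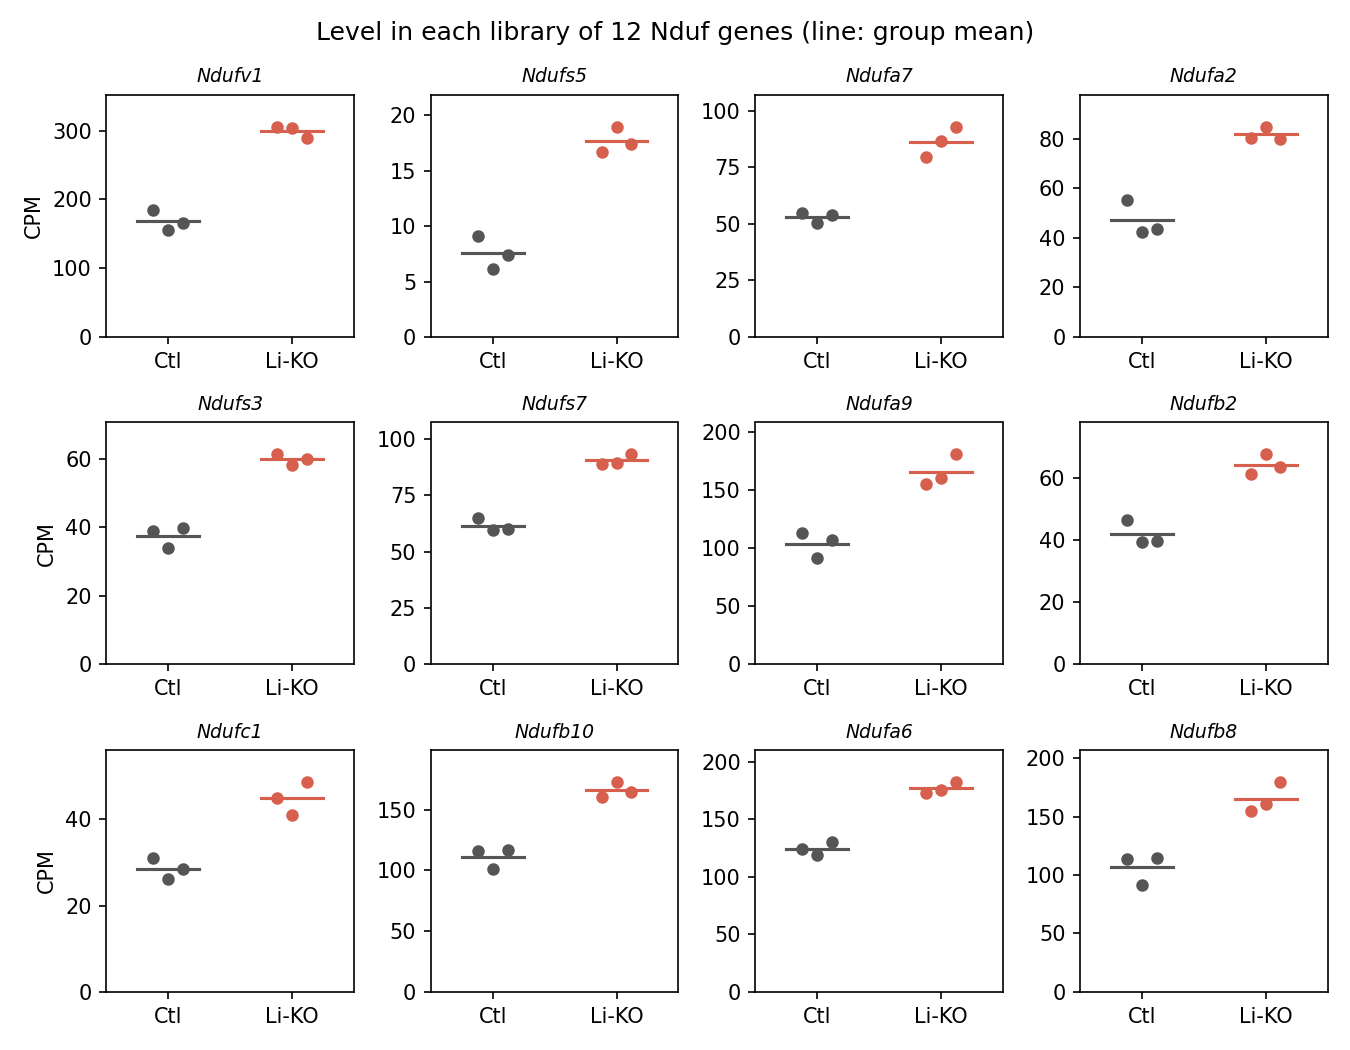
CPM in each library (y axis, starting at 0) of 12 of the called Nduf genes with the smallest p-values, with Ctl in grey, Li-KO in red and lines at the group means. In each panel the 3 Li-KO points lie above the 3 Ctl points, with Ndufv1 at 155 to 184 CPM in Ctl against 290 to 306 CPM in Li-KO.

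Of the 29 accessory subunits, 15 rose, 0 fell and 14 did not pass the test. The group's median log2 fold change was 0.46, and 27 of the 29 values were positive. Ndufs5 (ENSMUSG00000028648.13, chromosome 4, 123712710 to 123718202, minus strand, mm10), a small cysteine-rich subunit on the intermembrane side, had the largest change of the family. It measured 9.11, 6.14 and 7.43 CPM in Ctl against 16.7, 19.0 and 17.4 CPM in Li-KO, a log2 fold change of 1.23 ± 0.18 (adjusted p = 0.00711). The groups were far apart, but this gene shares 99.4% identity over a stretch of its transcript with the gene BC002163, and how the authors' program assigned fragments matching both was not given in the sources used here. BC002163 measured 10.5, 13.1 and 21.6 CPM in Ctl against 9.35, 12.2 and 14.7 CPM in Li-KO, and did not pass the test (-0.32 ± 0.28, adjusted p = 0.495). Summed over the pair, a check chosen after seeing these values, the level was 19.6, 19.2 and 29.1 CPM in Ctl against 26.0, 31.2 and 32.1 CPM in Li-KO. The summed groups overlapped, so the size of the change in Ndufs5 is uncertain.

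In the part of the complex that binds NADH, Ndufa2, a thioredoxin-like subunit, measured 55.5, 42.2 and 43.8 CPM in Ctl against 80.5, 85.0 and 80.1 CPM in Li-KO (0.79 ± 0.13, adjusted p = 0.0111). Ctl replicate 0 was the high one of its group and still far under the lowest Li-KO library. Ndufa7, another matrix-arm subunit, measured 54.8, 50.4 and 53.7 CPM in Ctl against 79.7, 86.4 and 93.0 CPM in Li-KO (0.71 ± 0.11, adjusted p = 0.00910). Its call, like those of Ndufv1 and Ndufs5, held in each of the 6 fits without a library, and no other call of the family did. Ndufv3 rose from 81.9 ± 8.19 to 116 ± 12.3 CPM (0.51 ± 0.13, adjusted p = 0.0410). Ndufs4, a subunit needed for a stable NADH-binding part, rose from 61.5 ± 6.94 to 84.4 ± 6.33 CPM with an adjusted p of 0.0497, close to the threshold. The calls of Ndufs4, Ndufa3 and Ndufb7 held in 0 of the 6 fits without a library.

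On the arm that leads to ubiquinone, Ndufa9 measured 113, 91.4 and 107 CPM in Ctl against 155, 160 and 181 CPM in Li-KO (0.67 ± 0.13, adjusted p = 0.0159). Ndufa9, a subunit at the joint of the matrix and membrane arms, had no overlap between its groups. Ndufa6, which belongs to the LYR family of small mitochondrial proteins, measured 124, 119 and 130 CPM in Ctl against 173, 176 and 183 CPM in Li-KO (0.52 ± 0.10, adjusted p = 0.0202). Libraries of a group differed little in Ndufa6, with an SD of 5.60 CPM in Ctl against 4.88 CPM in Li-KO.

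In the membrane arm, 9 accessory subunits rose. On the side next to the matrix arm, Ndufc1 measured 31, 26.2 and 28.5 CPM in Ctl against 45.1, 41.0 and 48.8 CPM in Li-KO (0.65 ± 0.13, adjusted p = 0.0174). Together with Ndufs5 and Ndufa3 (61.9 ± 5.21 to 83.2 ± 3.20 CPM, adjusted p = 0.0436) it made up the called genes of that side. On the far side, Ndufb2 measured 46.5, 39.5 and 39.9 CPM in Ctl against 61.3, 67.8 and 63.5 CPM in Li-KO (0.61 ± 0.12, adjusted p = 0.0171). Ndufb10, a subunit that is oxidised on import into the intermembrane space, measured 116, 101 and 117 CPM in Ctl against 160, 173 and 164 CPM in Li-KO (0.57 ± 0.11, adjusted p = 0.0185). The Li-KO libraries of both genes were all above the Ctl libraries. The other called genes there were Ndufb5 (log2 fold change 0.68), Ndufb8 (0.63), the X-linked Ndufb11 (0.52) and Ndufb7 (0.39).

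Of the 14 accessory subunits that did not pass the test, several were close to the threshold. Ndufb9, which had the highest level per length of the accessory subunits, just missed the threshold with 179, 166 and 215 CPM in Ctl against 249, 257 and 277 CPM in Li-KO (0.48 ± 0.13, adjusted p = 0.0509). Its groups did not overlap, and it was called in 9 of the 12 alternatives that use all libraries. Ndufa11, also without overlap (0.43, adjusted p = 0.0515), was called in 6 of them. Other accessory subunits had fold changes near 0. Ndufa8 measured 70.7, 68.9 and 73.4 CPM in Ctl against 73.8, 79.5 and 68.1 CPM in Li-KO (0.06 ± 0.11, adjusted p = 0.777). Ndufa5 measured 56.5, 61.6 and 73.1 CPM in Ctl against 56.0, 68.1 and 77.9 CPM in Li-KO (0.08 ± 0.16, adjusted p = 0.778). In both genes the libraries of the groups were interleaved. Ndufab1, the mitochondrial acyl carrier protein, which also serves lipoic acid synthesis, measured 32.6, 25.8 and 24.4 CPM in Ctl against 25.2, 28.7 and 35.5 CPM in Li-KO (0.11 ± 0.17, adjusted p = 0.717). The X-linked Ndufa1 (-0.09 ± 0.14, adjusted p = 0.724) and Ndufb4 (-0.21 ± 0.27, adjusted p = 0.660) were the accessory subunits with negative values. Ndufb4 measured 17.2, 19.0 and 21.3 CPM in Ctl against 9.67, 18 and 22.1 CPM in Li-KO, and its sign turned without the low Li-KO replicate 0 (0.09, adjusted p = 0.778). Its promoter, shown above, holds the only match to the estrogen-related receptor motif among the windows of the family.

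By structural part, 5 of 9 genes of the NADH-binding part rose (median log2 fold change 0.46), as did 6 of 7 of the ubiquinone-binding part (0.56), 3 of 9 of the near membrane part (0.43) and 6 of 10 of the far membrane part (0.50). No gene of any part was called lower. The medians differed by at most 0.13, less than the range within each part, and the differences between parts were not tested.

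Of the 8 assembly factors with Nduf names, 1 rose, 0 fell and 7 did not pass the test. That is 12.5% called higher, beside 6.11% of all tested genes. The median log2 fold change was 0.44, and 6 values were positive. Ndufaf8 (ENSMUSG00000078572.3, chromosome 11, 120098928 to 120100705, plus strand, mm10), which stabilises the assembly factor Ndufaf5, measured 8.72, 7.0 and 8.04 CPM in Ctl against 13.6, 16.1 and 11.6 CPM in Li-KO. The groups did not overlap, and the log2 fold change was 0.80 ± 0.18 (adjusted p = 0.0288), a call that was lost in 4 of the 6 fits without a library. Ndufaf5, which hydroxylates Ndufs7 during assembly, measured 4.74, 5.46 and 4.48 CPM in Ctl against 7.48, 7.13 and 6.66 CPM in Li-KO (0.53 ± 0.18, adjusted p = 0.0948). Ndufaf3, an early factor of the ubiquinone-binding part, measured 11.0, 8.80 and 9.68 CPM in Ctl against 13.8, 17.2 and 13.8 CPM in Li-KO, just above the threshold (0.60 ± 0.17, adjusted p = 0.050). Neither gene was called, although the groups did not overlap in either. Its binding partner Ndufaf4 went the other way in value (-0.12, adjusted p = 0.697), with 67.5, 66.1 and 75.6 CPM in Ctl against 47.3, 64.7 and 79.9 CPM in Li-KO. Ndufaf1, which binds Acad9 and Ecsit in an assembly complex for the membrane arm, measured 32.3, 33.6 and 36.5 CPM in Ctl against 36.8, 40.2 and 40.3 CPM in Li-KO (0.20 ± 0.12, adjusted p = 0.301). Ndufaf2, a relative of the subunit Ndufa12, had the lowest fold change of the group (-0.25 ± 0.21, adjusted p = 0.465), with 10.2, 10.5 and 14.1 CPM in Ctl against 8.89, 8.22 and 12 CPM in Li-KO, and the groups overlapped.

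Most assembly factors were weakly expressed, with SEs of 0.12 to 0.21 against 0.10 to 0.14 in the core subunits. Their median of 0.44 lay near that of the accessory subunits (0.46) and below that of the core subunits (0.56), and the difference between the roles was not tested. Among 10 tested assembly factors without an Nduf name, 3 rose and 0 fell (median 0.33). Acad9 rose from 39.2 ± 1.59 to 55.7 ± 3.26 CPM (0.51, adjusted p = 0.0260), and Foxred1 from 44.3 ± 2.41 to 64.1 ± 6.26 CPM (0.53, adjusted p = 0.0280). Tmem186, a membrane protein of the same assembly complex as Acad9, rose from 18.1 ± 1.32 to 28.3 ± 4.64 CPM (0.65, adjusted p = 0.0316). Ecsit measured 51.0 ± 2.70 and 65.5 ± 2.93 CPM and was not called (0.36, adjusted p = 0.0630).

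Ndufa4 carries a complex I name but is a subunit of complex IV, and it was kept apart. It had the highest level per length of the family and measured 234, 181 and 194 CPM in Ctl against 279, 301 and 368 CPM in Li-KO (0.64 ± 0.16, adjusted p = 0.0350). Li-KO replicate 2 was the high one, and the groups did not overlap. Ndufa4l2, its relative induced by low oxygen, was near 1 CPM, at 0.863, 1.18 and 0.690 CPM in Ctl against 1.97, 1.64 and 1.14 CPM in Li-KO, and the groups overlapped (0.79 ± 0.39, adjusted p = 0.215). The tested pseudogenes Ndufs6b (0.36, adjusted p = 0.229) and Ndufa11b (-0.85 ± 0.66, adjusted p = 0.431) were not called.

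Levels per length were compared as FPKM, the deposited fragment values scaled to gene length and library depth. The core subunits described here lay between 41.7 and 121 FPKM on average over the 6 libraries (median of all 7 core subunits 78.1), accessory subunits between 12.2 and 347 (median 111), and assembly factors between 4.33 and 21.5 (median 11.6). The highest assembly factor, Ndufaf1, was thus below the lowest core subunit, Ndufs3. In Ctl liver Ndufs7 at 91.4 ± 2.81 and Ndufv1 at 88.8 ± 7.74 FPKM (SD, n = 3 each) did not differ beyond their spread. In Li-KO liver Ndufv1 (153 ± 2.30) lay above Ndufs7 (125 ± 9.63 FPKM). Among accessory subunits Ndufb9 (292 ± 37.3 FPKM in Ctl) and Ndufa5 (280 ± 34.0) shared the top within their spread, and in Li-KO liver they were at 403 ± 19.8 and 290 ± 36.2 FPKM. Ndufab1 (11.2 ± 1.53 FPKM in Ctl) and Ndufa11 (10.7 ± 1.36) were lowest, and did not differ beyond their spread. Ndufa4 stood above all others at 483 ± 74.6 FPKM in Ctl and 761 ± 137 FPKM in Li-KO.

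**Figure D3:**
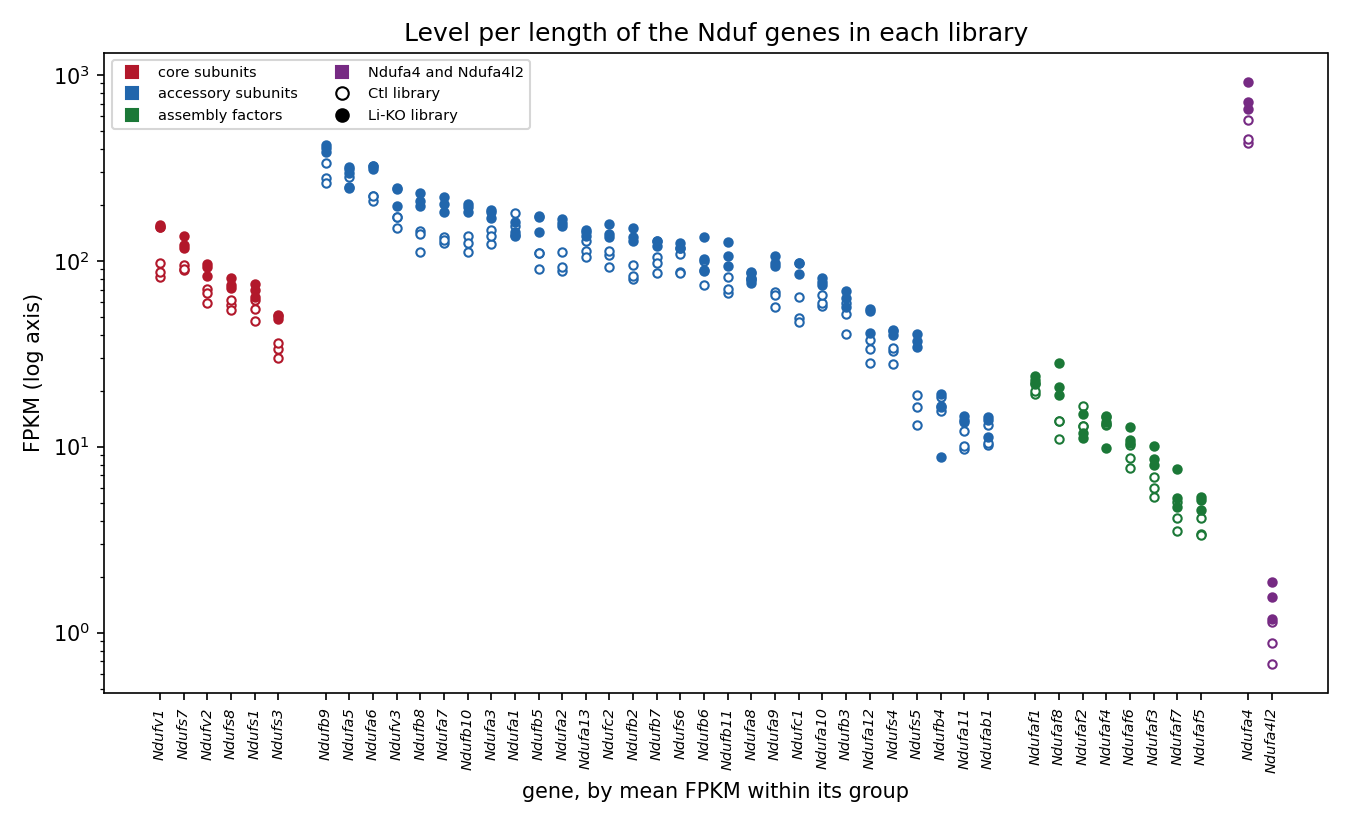
FPKM of the Nduf genes in each library (y axis, log scale), ordered by mean level within each role, with open points for Ctl and filled points for Li-KO libraries. Assembly factors, from 4.33 to 21.5 FPKM on average, lie below the core subunits shown, from 41.7 to 121 FPKM, and Ndufa4 at 622 FPKM is the highest.

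Libraries of a group also tended to keep the same rank across the family. Ctl replicate 1 was the lowest Ctl library for 35 of the 48 genes and Li-KO replicate 0 the lowest Li-KO library for 26. Li-KO replicate 2 was the highest Li-KO library for 28 genes, and Ctl replicate 2 the highest Ctl library for 25. Relative to the mean level of each gene in Ctl, the median log2 level of the 48 genes was 0.05, -0.14 and 0.07 in the Ctl libraries against 0.42, 0.48 and 0.48 in the Li-KO libraries. The spread between the libraries of a group was thus smaller than the gap between the groups.

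Other parts of the respiratory chain were set beside complex I. In complex III, which passes electrons from ubiquinol to cytochrome c, 6 of 9 nuclear genes rose (median log2 fold change 0.52), Uqcr10 from 76.8 ± 11.3 to 143 ± 5.01 CPM among them. In complex IV, cytochrome c oxidase, 7 of 11 rose (0.52), and Cox7a2 went from 138, 98.4 and 115 CPM to 243, 214 and 229 CPM. In complex V, the ATP synthase, 10 of 14 tested genes rose (0.67), and the ring subunit gene Atp5g1 went from 21 ± 1.27 to 47.4 ± 2.93 CPM (1.17, adjusted p = 0.00165). In complex II, succinate dehydrogenase, the membrane anchors Sdhc (0.82, adjusted p = 0.0124) and Sdhd (0.84, adjusted p = 0.0161) rose and the 2 other subunits did not pass the test. Of these, Sdha was higher in value (0.22, adjusted p = 0.317) and Sdhb lower (-0.37 ± 0.14, adjusted p = 0.109). Sdhb measured 205, 170 and 213 CPM in Ctl against 156, 135 and 164 CPM in Li-KO, with no overlap. No gene of these complexes was called lower. Of the mitochondrial ribosomal protein genes 19 of 76 tested rose (median 0.36), and of the cytoplasmic ones 28 of 71 (median 0.48), with 0 lower in both. The cytoplasmic list held 82 genes, and some tested ones had very few fragments. Among these were Rps16 (0.276 CPM in Ctl, SE 0.75) and Rpl11 (0.526 CPM in Ctl, SE 0.60), whose fold changes are imprecise. The differences between complex I and these lists were not tested. Among 13 genes that supply NADH, such as pyruvate dehydrogenase and citric acid cycle enzymes, 4 rose (median 0.18), including Dlat from 63.7 ± 2.85 to 103 ± 6.11 CPM (0.69, adjusted p = 0.00873). The other listed pyruvate dehydrogenase genes were not called: Pdha1 (0.01), Dld (0.06) and Pdhb, which was lower in value (-0.27, adjusted p = 0.150). The mitochondrially encoded complex I genes could not be compared: 3 of the 7 were listed at 0 in every library, and none of 13 mitochondrial protein genes exceeded 2.5 CPM in any library.

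**Figure D4:**
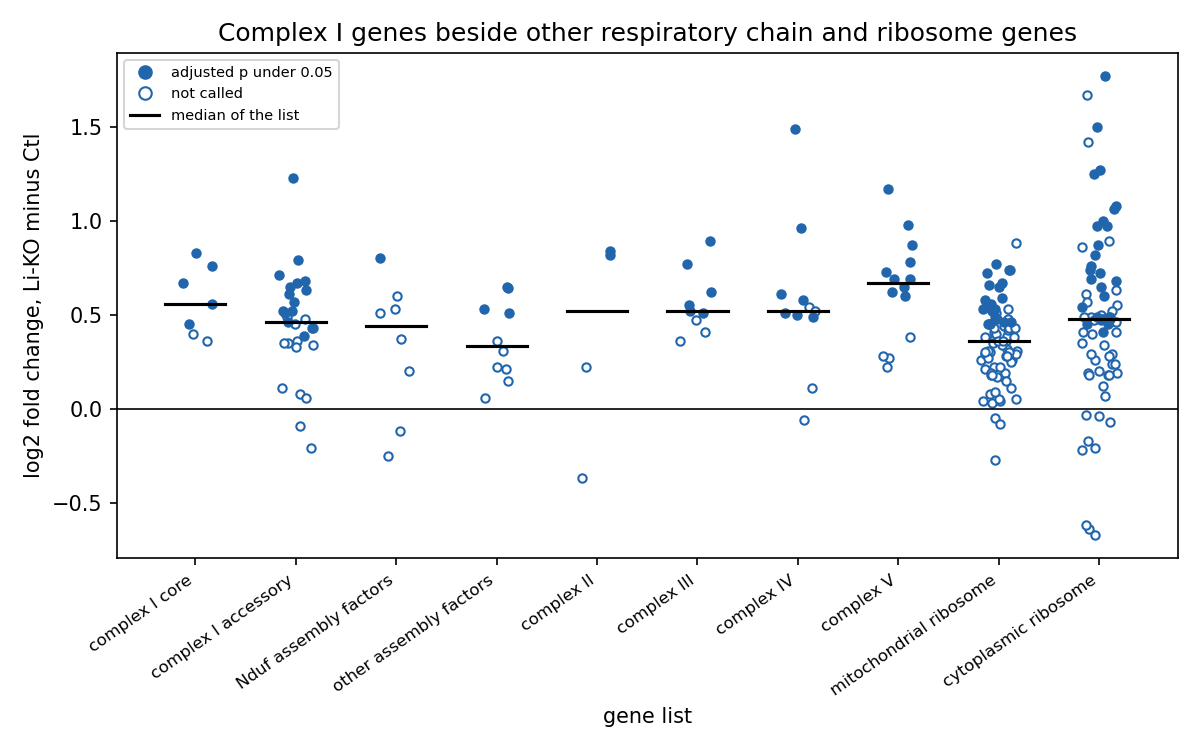
Log2 fold change (Li-KO minus Ctl, y axis) of each tested gene in 10 gene lists (x axis), with filled points for an adjusted p under 0.05, open points for genes not called and a line at each list's median. The medians of complex I core (0.56), complex III (0.52), complex IV (0.52), complex V (0.67) and cytoplasmic ribosomal protein genes (0.48) all lie above 0.

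Of 15 listed regulators of mitochondrial genes, some of which act on mitochondrial DNA itself, 1 rose and 2 fell, and the median was -0.02. Over all tested genes, 6.11% rose, 5.90% fell and the median was -0.01. Esrra, the estrogen-related receptor alpha, measured 40.7, 39.8 and 36.6 CPM in Ctl against 89.5, 74.7 and 70.0 CPM in Li-KO, with no overlap (adjusted p = 0.00446). Yy1, whose motif is in the windows of Ndufs7 and Ndufa9, fell from 53.0, 52.3 and 60.2 CPM to 26.4, 31.9 and 44.1 CPM (-0.69 ± 0.19, adjusted p = 0.0471). The coactivator gene Ppargc1b also fell (-1.0 ± 0.21, adjusted p = 0.0210), with no overlap. Ppargc1a, its better known relative, was not called, at 16.9 to 38.4 CPM in Ctl against 35.9 to 91.7 CPM in Li-KO, where Li-KO replicate 1 lay below Ctl replicate 0 (1.27 ± 0.39, adjusted p = 0.0678). Nrf1 (0.17, adjusted p = 0.495), Gabpa (-0.33, adjusted p = 0.0784) and Tfam, the mitochondrial DNA packaging factor (0.39, adjusted p = 0.0784), did not pass the test either. Whether any of these bears on the Nduf genes was not tested.

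Fold changes went with exonic length, and the share of genes called in either direction went with abundance. Of the 48 Nduf genes, 27 lay in the shortest of 5 equal classes of exonic length. A separate count put 27 in the most abundant of 5 classes of level. In that level class 10.7% of all genes were called higher and 9.65% lower, with a median of -0.01. In the least abundant class these were 1.12%, 1.18% and -0.04. Over all genes, the share called higher fell from 9.02% in the shortest class to 2.70% in the longest, and the median log2 fold change from 0.13 to -0.14. Among the 807 genes in both the shortest 2 length classes and the most abundant class, 20.2% were called higher and 7.93% lower (median 0.18). Of the 20 Nduf genes in that set, 13 were called higher. With the trend of fold change on length removed, 16 of the 48 Nduf genes were still called higher, 0 were lower and the median was 0.39. Over all 16470 genes of that fit, 915 (5.56%) were called higher and 770 lower, with a median of 0.01. Under that correction 4 of 7 core subunits, 12 of 29 accessory subunits and 0 of 8 assembly factors were called. Exonic length counts every annotated exon of a gene and can exceed the length of the expressed transcript. Ndufb2 had 5628 exonic bases, but 85.6 FPKM against 42.0 CPM in Ctl point to a much shorter transcript. Such genes are placed among longer ones, so the length classes and the counts under the correction are uncertain. Erythroid markers were also lower in value in Li-KO (6 genes, 740 to 810 CPM in sum in Ctl and 296 to 589 CPM in Li-KO, 0 called). Of 5 tested nuclear-retained RNAs, 2 were called higher (Meg3 and Rmrp). Neat1 (0.88, adjusted p = 0.213) and Rpph1 (0.68, adjusted p = 0.0943) were not called, nor was Kcnq1ot1, which was lower in value (-0.12, adjusted p = 0.576). The part of these in the result was not tested.

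**Figure D5:**
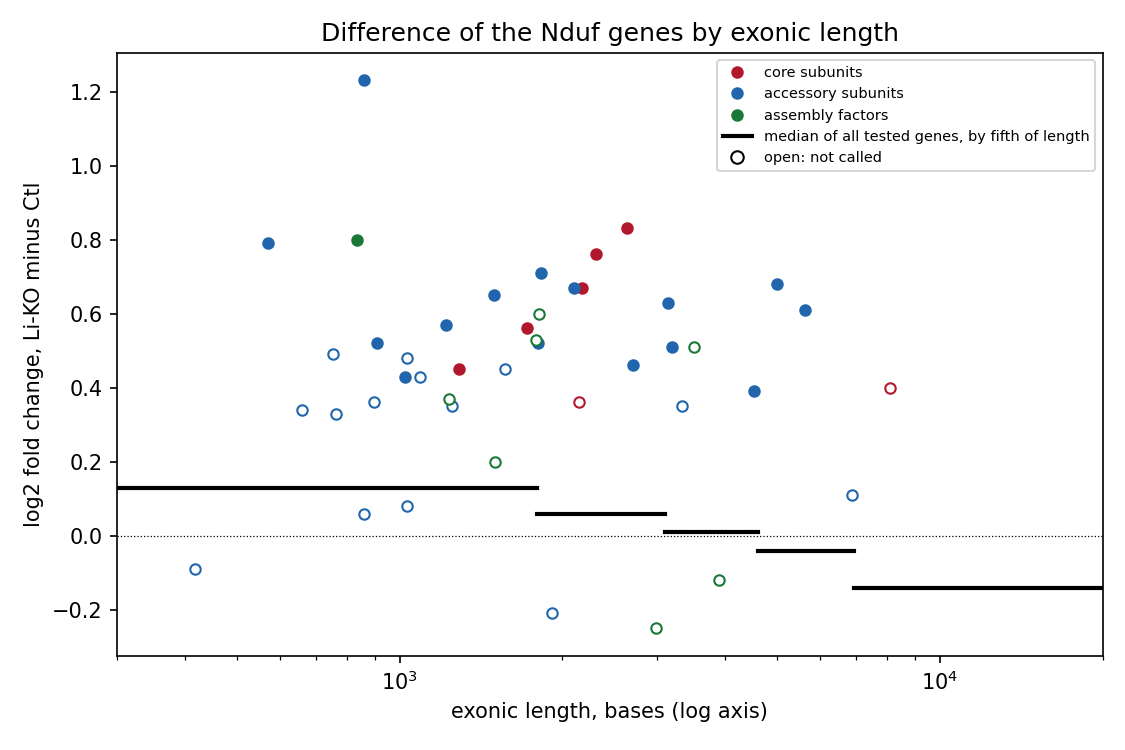
Log2 fold change (Li-KO minus Ctl, y axis) of core, accessory and assembly genes against exonic length in bases (x axis, log scale), with filled points for called genes and black lines for the median of all tested genes in each of 5 length classes. The line falls from 0.13 in the shortest class to -0.14 in the longest, and most Nduf genes lie above it.

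Close copies and overlapping genes make some values uncertain. Leaving aside genes that overlap the Nduf gene itself, a stretch of at least 200 bases with at least 95% identity in another gene was found for 10 of the 49 genes. Without these genes, 19 of 39 tested Nduf genes were called higher. Of the called genes, Ndufs3 has such a copy in Gm12251, which itself rose from 11.1 ± 2.25 to 21.8 ± 1.11 CPM, and the sum of both was 43.4 to 52.6 CPM in Ctl against 79.5 to 83.2 CPM in Li-KO, with no overlap. Ndufb11 has one in Gm6444, and that sum was 69.9 to 82.3 CPM in Ctl against 97.9 to 122 CPM in Li-KO. Ndufb5, Ndufb11 and Ndufa2 share more than 10% of their exonic bases with a gene on the opposite strand (Mrpl47, Rbm10 and Tmco6). Those 3 genes were not called, with log2 fold changes of 0.18, -0.06 and 0.08. On their own strand, the called Ndufb8 and Ndufb2 overlap Gm20538 (4.26% of exonic bases) and Gm42420 (2.58%). Among the genes not called, Ndufaf2 (65.65% of its exonic bases), Ndufb6 (39.0%) and Ndufa13 (29.98%) overlap an opposite-strand gene, Ndufb9 overlaps Gm49356 on its own strand (19.5%), and the strand setting of the counting was not given in the sources used here.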

How the data were processed

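RNA sequencing of whole liver was analysed for 3 Ctl and 3 Li-KO libraries, made from column-isolated total RNA with a stranded total RNA kit, per the labels' protocols. Reads were processed with STAR, Cufflinks and Cuffdiff on mm10, per the submitters' processing notes, with versions, annotation and strand use not given in the sources used here. In the deposited table stands, for each gene and library, an expected count (raw fragments, not normalized) and an FPKM value as scaled between libraries by the authors' program, per the file headers. Its conditions WT and KO were taken as Ctl and Li-KO, with the replicate numbers of the titles. Of the count values, 3.29% were not whole, and all were rounded. The 77 genes skipped in some library for too many fragments (0 of them Nduf genes) were left out, and 0 rows of libraries were left without a sample.

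Symbols were matched for 48051 of the gene IDs and not for 381. Gene type, position, length and transcripts came from GENCODE M21 on mm10. The default filterByExpr step of edgeR 4.0.16 (at least 10 counts, 15 in total) kept 16533 genes. After TMM scaling, Li-KO was compared with Ctl by the two-sided quasi-likelihood test with the group as only term. P-values were adjusted by Benjamini-Hochberg over all tested genes and called at 0.05. The SE came from each fold change and the F value. The scripts were tested on simulated data. Lists are described by counts and medians, with no list test. Copies were found with BLAST+ 2.17.0. No pair of libraries of a group agreed within sampling noise, and each library counts as 1 replicate. Same-numbered libraries did not deviate together (correlations 0.018, 0.081 and 0.067), so the numbers were not used as pairs.

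The members and the lists were chosen with earlier results of these data known. The rule for genes named in full took Klf15, the 12 called Nduf genes with the smallest p, and in each role the genes with the largest and smallest fold change and the highest and lowest FPKM, and up to 4 called genes of each other list could be named. For 1 core subunit the values are not reported here, though it is in the counts. Alternatives were RLE and upper quartile scaling, DESeq2 1.42.0, voom and limma 3.58.1 on log2(FPKM + 1) and log2(FPKM + 0.1), other filters, skipped genes kept at 0, a replicate block, removal of the length trend and leaving out each library. R 4.3.3 and Python 3.11.15 (with numpy 2.4.6, pandas 2.3.3 and matplotlib 3.10.9) ran these steps.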

Additional observations from a re-analysis of the deposited data

How the results depend on the processing

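Over 18 alternatives 0 Nduf genes were called lower, and all 22 called genes kept a positive fold change. The calls of 11 of them held in each of the 12 alternatives that use all libraries, and those of 3 (Ndufv1, Ndufs5 and Ndufa7) in each of the 6 fits without a library. Without 1 library, the called Nduf genes numbered 4 to 17, core subunits 2 to 5, accessory subunits 2 to 12 and assembly factors 0 to 1, while 198 to 1102 genes of the whole table were called higher and 234 to 1447 lower. The median log2 fold change of the assembly factors was then 0.35 to 0.49. With limma on log2(FPKM + 0.1), 11 Nduf genes, 3 core and 8 accessory subunits and 0 assembly factors were called higher, with 445 genes higher and 582 lower in all and a core median of 0.46. On log2(FPKM + 1) the core median was 0.45 and the assembly median 0.35, and with all genes above 0 kept these were 0.45 and 0.35. In the fit with all genes above 0, 14 Nduf genes, 0 assembly factors and 614 of 25176 genes were called higher. DESeq2 called 1497 genes higher and 1516 lower, but over 25160 genes rather than 16533. The share called higher was 5.95%, against 6.11% in the main fit. DESeq2, RLE scaling, upper quartile scaling, a mean CPM of at least 1 and skipped genes kept at 0 each called 2 assembly factors. With the length trend removed, the accessory median was 0.36 and 0 assembly factors were called. The cause was not tested in any of these. Of the 48 genes, 6 turned in sign in some alternative, and each was not called there: over the fits without 1 library Ndufb4 (-0.47 to 0.09), Ndufab1 (-0.04 to 0.24), Ndufa5 (-0.04 to 0.22), Ndufa1 (-0.17 to 0.04) and Ndufaf4 (-0.32 to 0.07), with the length trend removed Ndufa5 (-0.05) and Ndufa8 (-0.10), and in the 3 fits on FPKM Ndufa8 (-0.03). A replicate block gave 18 called Nduf genes, 4 core and 12 accessory subunits and 1 assembly factor; the libraries share only a number. Weakly expressed genes such as Ndufa4l2 and Ndufa11b, near 1 CPM or below, allow no precise fold change.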
